A study of Mus musculus with 6 samples.

Results

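The collagen genes of the mouse were taken as the protein-coding RefSeq genes whose symbol has the form Col, a number, the letter a and a number, such as Col1a1. There were 44 of them among 21883 protein-coding genes. Each gene was given the binding sites (peaks) whose summit lay inside the gene or within 50 kb of either end. Chromatin immunoprecipitation followed by sequencing had been carried out with antibodies to pSmad1/5 and to Smad4, in molar tooth germs and in limbs of wild-type CD1 embryos at E13.5. The 4 lists of peaks came from molar pSmad1/5, limb pSmad1/5, molar Smad4 and limb Smad4, with 1 library each, and 2 input samples were not used here. All groups shared genotype, strain and stage. The sources used here do not say how many embryos were pooled for a library or which cells of the tooth germ or limb were included, and peak lists hold no expression with which the tissue could be checked.

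Collagens are triple-helical proteins of the extracellular matrix. Fibrillar collagens form the cross-banded fibres of dermis, tendon, bone, dentine and cartilage, type IV collagens form the sheet of basement membranes, such as that between dental epithelium and mesenchyme, and a cartilage set led by type II collagen fills the growing limb skeleton. pSmad1/5 is the activated form of the transcription factors that carry bone morphogenetic protein (BMP) signals into the nucleus, and Smad4 is their common partner, also used by TGF-beta signals. BMP signalling drives early tooth development and the differentiation of limb chondrocytes.

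The molar pSmad1/5 list held 35476 peaks and the limb pSmad1/5 list 23389. There were 34561 peaks in the molar Smad4 list and 29756 in the limb Smad4 list. The lists give no read counts, so depth is unknown, and with 1 library per group no difference has a replicate check and no p-value was computed. The lowest enrichment score, which is the authors' own value per peak, differed between lists on some chromosomes, and these are given with the tissue comparison.

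Collagen genes nearly all had peaks. A peak within 50 kb was listed for 40 of the 44 members in molar pSmad1/5, or 90.9% (95% exact binomial interval 78.3 to 97.5%), against 74.9% of all protein-coding genes. In limb pSmad1/5 there were 35 members, or 79.5%, against 68.0% of all genes. In molar Smad4 there were 39, or 88.6%, against 68.0%, and in limb Smad4 37, or 84.1%, against 71.2%. Peaks in all 4 lists were found at 26 members, or 59.1%, against 44.4% of all genes. Col12a1, which codes for a collagen that coats the surface of fibrils, was the one member without a peak in any list, while 11.6% of all genes had none.

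Length bears on these counts. The median collagen gene spanned 114.4 kb, against 17.2 kb for all protein-coding genes, and ran from 7.105 kb for Col10a1 to 419.5 kb for Col25a1. When all genes were weighted to the length classes of the collagen genes, the share with a peak was 85.4% in molar pSmad1/5, 77.9% in limb pSmad1/5, 80.6% in molar Smad4 and 80.6% in limb Smad4. The weighted background was thus closer to the collagen shares and below them in each list. It lay within the exact binomial interval of the collagen share in each list. In the same order these intervals were 78.3 to 97.5, 64.7 to 90.2, 75.4 to 96.2 and 69.9 to 93.4%. A peak within 10 kb was listed for 37 members in molar pSmad1/5 (84.1%, against 54.2% of all genes), 31 in limb pSmad1/5 (70.5%, against 47.8%), 33 in molar Smad4 (75%, against 44.3%) and 33 in limb Smad4 (75%, against 52.3%). The 10 kb shares of all genes were not weighted by length. Over the 9.21 Mb of merged collagen windows there were 159 peaks in molar pSmad1/5, 141 in limb pSmad1/5, 186 in molar Smad4 and 228 in limb Smad4. Relative to the number at the density of all protein-coding gene windows on the same chromosomes (called chromosome density from here on), this was 0.965 for molar pSmad1/5 (95% Poisson interval 0.821 to 1.13), 1.38 for limb pSmad1/5 (1.16 to 1.63), 1.29 for molar Smad4 (1.12 to 1.49) and 1.57 for limb Smad4 (1.37 to 1.79). These intervals cover counting error over peaks only. Without the 5 members with the most peaks the ratios were 0.833, 1.25, 1.15 and 1.25, in the same order. The interval of the molar Smad4 ratio (0.967 to 1.37) then included 1, and that of the molar pSmad1/5 ratio (0.694 to 0.991) lay below 1. The 5 members were picked by their peak numbers in these same lists. That choice itself lowers the ratios, so no conclusion is drawn from these intervals. The ratios of all members also went both ways by chromosome. On chromosomes 1, 3, 6 and 16, with 13 members, they were 0.570, 0.353, 0.907 and 0.424, in the same order. Of these, only the molar Smad4 interval (0.685 to 1.18) included 1. On the other chromosomes, with 31 members, they were 1.52, 1.72, 1.59 and 2.01, each with an interval above 1.

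**Figure D1:**
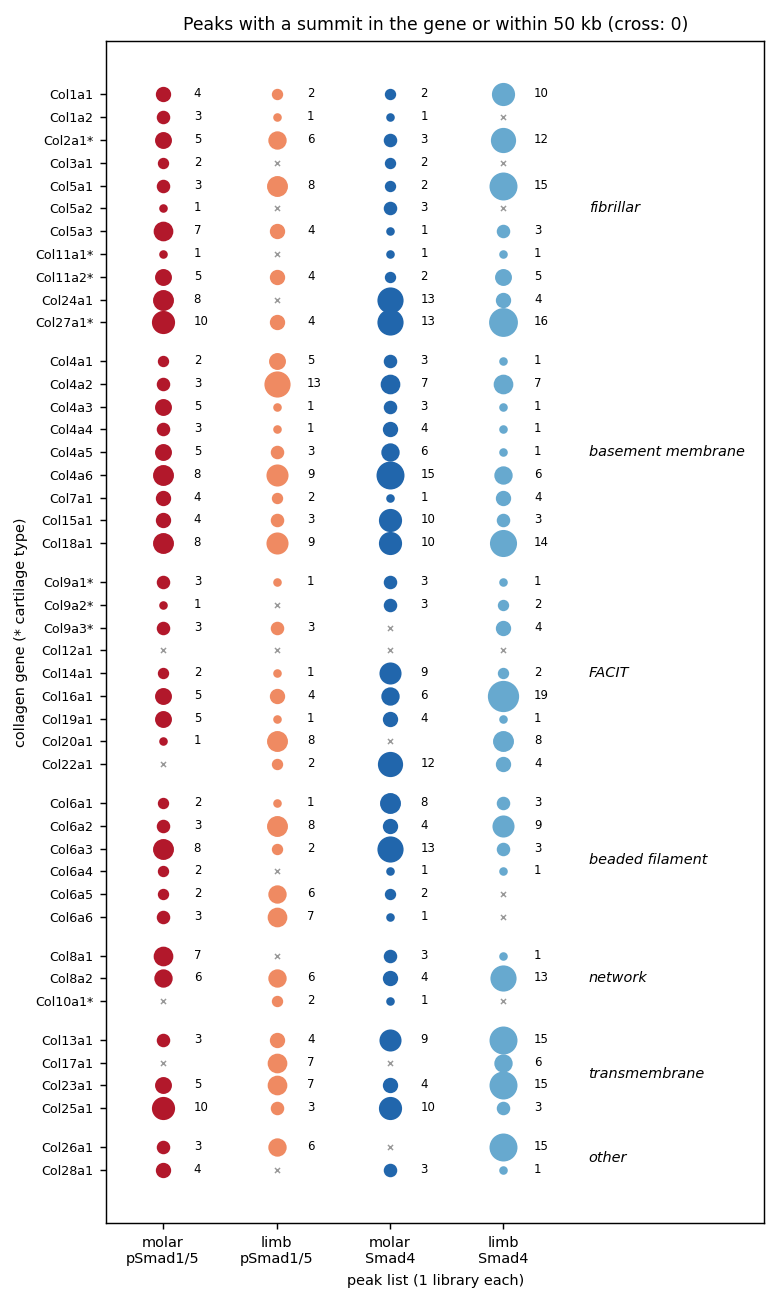
Number of peaks within 50 kb of each of the 44 collagen genes (rows, grouped by class) in molar pSmad1/5, limb pSmad1/5, molar Smad4 and limb Smad4 (columns, 1 library each). Col12a1 is empty in all 4 columns, and the limb Smad4 column holds the highest counts, 19 at Col16a1 and 16 at Col27a1.

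Peaks at the start of a collagen gene were found in each list. Of the 35 members with a RefSeq start and strand, 9 (25.7%) had a molar pSmad1/5 summit within 1 kb of a start. The share was 19.8% over the 17491 protein-coding genes with a RefSeq start, which also serve as background for the other lists here. The limb pSmad1/5 list had 3 (8.57%, against 13.6%), the molar Smad4 list 4 (11.4%, against 5.21%) and the limb Smad4 list 9 (25.7%, against 20.1%). The molar pSmad1/5 summits closest to a start were 36 bases before that of Col6a1, 70 before Col8a1, 84 before Col25a1 and 124 before Col27a1. The RefSeq starts used for Col25a1 and Col27a1 lie inside the annotated gene. Their summits are thus inside the gene, 403 and 1279 bases from its nearer end. The limb Smad4 list had summits 119 bases before Col8a2 and 230 before Col24a1. Col6a1 makes a chain of the beaded filaments around cells, Col8a1 and Col8a2 make the network-forming type VIII collagen, Col24a1 is a fibrillar collagen, and Col25a1 makes a membrane-bound collagen. The 250 bases before 4 of these starts are shown because a summit lay in each and no protein-coding gene is annotated there (RefSeq, GRCm38.p6, 5′ to 3′ on the strand of the gene): Col6a1 is chr10:76726045-76726294, minus strand, Col8a1 is chr16:57754738-57754987, minus strand, Col8a2 is chr4:126286544-126286793, plus strand, and Col24a1 is chr3:145292222-145292471, plus strand. Capitals mark CAGAC, the short element bound by Smad4.
Col6a1: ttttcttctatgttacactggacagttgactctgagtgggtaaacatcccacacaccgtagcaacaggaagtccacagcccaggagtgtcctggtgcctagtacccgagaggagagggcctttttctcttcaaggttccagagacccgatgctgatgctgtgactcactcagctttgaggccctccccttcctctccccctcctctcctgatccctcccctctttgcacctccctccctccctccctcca
Col8a1: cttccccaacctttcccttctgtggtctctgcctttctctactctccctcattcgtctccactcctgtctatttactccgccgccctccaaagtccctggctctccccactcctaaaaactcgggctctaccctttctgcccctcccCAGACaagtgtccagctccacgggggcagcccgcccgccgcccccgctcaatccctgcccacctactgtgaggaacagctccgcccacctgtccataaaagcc
Col8a2: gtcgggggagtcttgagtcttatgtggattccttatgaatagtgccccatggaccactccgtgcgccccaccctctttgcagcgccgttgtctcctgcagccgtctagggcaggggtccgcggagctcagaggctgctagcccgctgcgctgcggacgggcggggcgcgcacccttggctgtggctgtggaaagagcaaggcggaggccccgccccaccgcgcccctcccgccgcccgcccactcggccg
Col24a1: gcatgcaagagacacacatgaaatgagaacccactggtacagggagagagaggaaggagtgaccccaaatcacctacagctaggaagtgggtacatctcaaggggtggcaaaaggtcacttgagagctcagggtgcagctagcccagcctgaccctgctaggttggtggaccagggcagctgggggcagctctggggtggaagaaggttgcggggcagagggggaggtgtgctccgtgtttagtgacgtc
Only Col8a1 held a CAGAC, 30 bases from the molar pSmad1/5 summit, and none of the 4 held GGCGCC or GGAGCC, the GC-rich elements known for Smad1/5.

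The start of Col25a1 had both a molar pSmad1/5 summit (score 4.95, 84 bases before the start) and a molar Smad4 summit (score 3.24, 2 bases before it), 82 bases apart. The start shared by Col4a1 and Col4a2, which are transcribed away from each other and make the main type IV collagen, had a molar pSmad1/5 summit (score 4.07) 171 bases before that of Col4a1 and 192 bases into Col4a2. GC-rich elements lay close to these pSmad1/5 summits and are shown in 30-base stretches, with the element in capitals. They are chr8:11313001-11313030 (minus strand) for Col4a1, 18 bases from the summit, and chr3:130180697-130180726 and chr3:130180778-130180807 (plus strand) for Col25a1, 49 and 32 bases from the summit, where GGCTCC is GGAGCC read on the other strand.
Col4a1: ctctgctccgtgGGCGCCggactctcggcc
Col25a1 upstream element: atagagacctcgGGCTCCgctcccacccgc
Col25a1 downstream element: tgctaataaggaGGCTCCtgcgggaggggg
Across the 38 promoter windows of the collagen genes, GGCGCC on either strand of the 250 upstream bases was found in 4 (10.5%, against 12.3% of all promoter windows), GGAGCC in 6 (15.8%, against 29.3%) and CAGAC in 17 (44.7%, against 40.8%). In the 9 of these windows with a summit of any list, GGCGCC was found in 1 (11.1%), GGAGCC in 2 (22.2%) and CAGAC in 4 (44.4%). The other window with GGAGCC was that of Col18a1, where it lay 245 bases from the limb pSmad1/5 summit. GGCGCC is its own reverse complement, and the 3 motifs do not contain one another. A match describes these letters only and is no measure of binding.

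**Figure D2:**
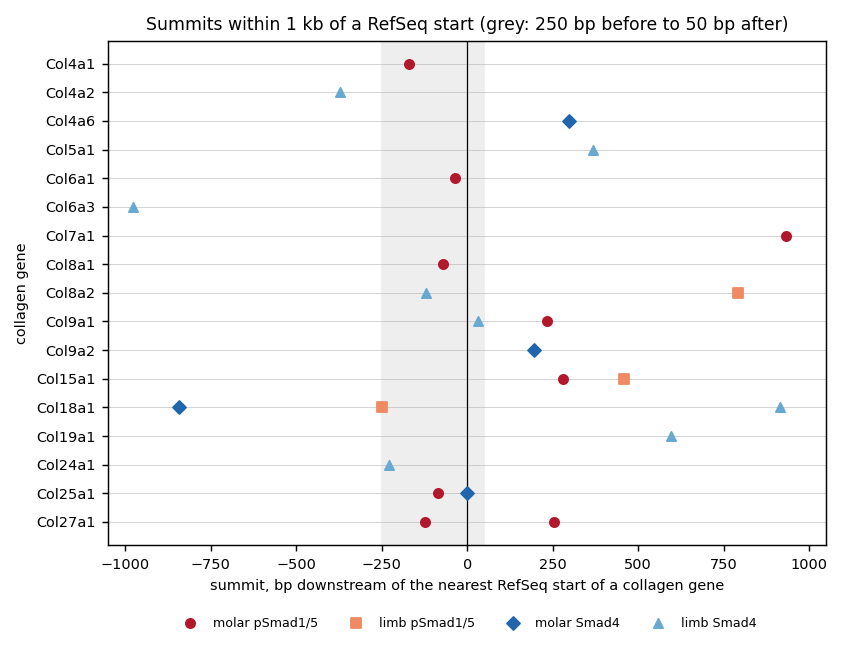
Position of each summit within 1 kb of a RefSeq start of a collagen gene (x axis, bases from the start, negative before it) by gene (rows) and list (colours). Molar pSmad1/5 summits of Col6a1, Col8a1, Col25a1, Col27a1 and Col4a1 lie within 171 bases before the start. The Col9a1 points are at an internal RefSeq start and the Col18a1 points at more than 1 start. The starts of Col25a1 and Col27a1 also lie inside the annotated gene.

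Other summits near a start were spread on both sides. Molar pSmad1/5 had further ones 254 bases after the start of Col27a1, 233 bases after an internal start of Col9a1, 280 bases after the start of Col15a1 and 931 bases into Col7a1. Limb pSmad1/5 had them 458 bases after the start of Col15a1, 791 bases into Col8a2 and 248 bases before an internal start of Col18a1. The molar Smad4 list had one 194 bases into Col9a2 (score 5.02), one 297 bases after the start of Col4a6 and one 841 bases before an internal start of Col18a1. Limb Smad4 summits lay 33 bases after the internal Col9a1 start, 368 bases after the start of Col5a1 and 372 bases before Col4a2. Others lay 595 bases after the start of Col19a1, 913 bases into Col18a1 and 978 bases before the start of Col6a3. Lists of both tissues had a summit within 500 bases of the same start at Col9a1, Col15a1 and the start shared by Col4a1 and Col4a2. In 9 members the strand was not given, and there a summit within 1 kb of an end cannot be placed at the start or the end of the gene. This held for Col14a1 (89 bases from an end in molar pSmad1/5, 413 in molar Smad4 and 611 in limb Smad4), Col9a3 (336 and 963 bases in limb pSmad1/5), Col2a1 (17 bases in limb Smad4) and Col26a1 (555 bases in limb Smad4).

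The position of the summits along the genes was then compared. Among the 34 members of at least 10 kb with a known strand, the first of 5 equal parts of the gene held 18 of 86 internal peaks in molar pSmad1/5 (20.9%), 12 of 60 in limb pSmad1/5, 24 of 95 in molar Smad4 (25.3%) and 21 of 97 in limb Smad4 (21.6%). Over all such genes these shares were 30.9, 26.6, 20.2 and 29.6%. Each of these lay within the exact binomial interval of the collagen share (12.9 to 31.0% in molar pSmad1/5, 10.8 to 32.3% in limb pSmad1/5, 16.9 to 35.2% in molar Smad4 and 13.9 to 31.2% in limb Smad4). The last of the 5 parts held 19 of 60 limb pSmad1/5 peaks (31.7%, against 22.7% over all genes). A peak inside the gene was listed for 37 members in molar pSmad1/5 (84.1%, against 39.1% of all genes), 26 in limb pSmad1/5 (59.1%, against 33.2%), 29 in molar Smad4 (65.9%, against 31.0%) and 30 in limb Smad4 (68.2%, against 37.8%). Weighted to collagen gene lengths, the shares over all genes were 65.2, 55.3, 60.6 and 58.9%.

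The fibrillar collagens are the main building blocks of fibres, and all 11 had a peak in molar pSmad1/5 and in molar Smad4, against 7 in limb pSmad1/5 and 8 in limb Smad4, beside 74.9% of all genes in molar pSmad1/5, 68.0% in limb pSmad1/5, 68.0% in molar Smad4 and 71.2% in limb Smad4. The 4 without a limb pSmad1/5 peak, Col3a1, Col5a2, Col11a1 and Col24a1, lie on chromosomes 1 and 3, where the lowest score listed was 2 in molar and 3 in limb when rounded down. By peak numbers the molar pSmad1/5 list had 48 and the limb pSmad1/5 list 29, while molar Smad4 had 41 and limb Smad4 66. The limb Smad4 number was 2.05 times that at chromosome density (1.59 to 2.61), and the ratios of the other lists were 1.09 in molar pSmad1/5, 1.31 in limb pSmad1/5 and 1.26 in molar Smad4, each with an interval that included 1.

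Col1a1, which makes the main chain of the collagen of bone and dentine, had 4 molar and 2 limb pSmad1/5 peaks, and 2 molar and 10 limb Smad4 peaks. None of the Smad4 peaks of molar lay inside the gene, against 4 in limb, the highest at chr11:94941963-94942011 with a score of 5.66. A molar pSmad1/5 summit (score 3.45) lay 53 bases from it. The second chain of that collagen, Col1a2, had 3 molar and 1 limb pSmad1/5 peaks, and 1 molar and 0 limb Smad4 peaks. The limb pSmad1/5 peak of Col1a2 was 40884 bases from the gene, with the neighbouring Casd1 nearest. Col1a1 was thus rich in limb Smad4 peaks where Col1a2 had none.

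Col3a1, the collagen of soft connective tissue, had 2 molar and 0 limb pSmad1/5 peaks, and 2 molar and 0 limb Smad4 peaks. Its neighbour on chromosome 1, Col5a2, had 1 molar and 0 limb pSmad1/5 peaks, and 3 molar and 0 limb Smad4 peaks. These genes lie 24624 bases apart, and 1 molar pSmad1/5 and 2 molar Smad4 peaks fell in the windows of both. In contrast Col5a1, whose product joins that of Col5a2 in type V collagen and starts fibrils, had 3 molar and 8 limb pSmad1/5 peaks, and 2 molar and 15 limb Smad4 peaks. The limb Smad4 peaks of Col5a1 included 12 inside the gene and one of score 5.27 in front of it, 27804 bases away. For Col5a3 the numbers were 7 molar and 4 limb pSmad1/5 peaks, and 1 molar and 3 limb Smad4 peaks.

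Col24a1 and Col27a1 are fibrillar collagens of developing bone and cartilage. Col24a1 had 8 molar and 0 limb pSmad1/5 peaks, and 13 molar and 4 limb Smad4 peaks. Inside it, 33.0 kb from the start, molar and limb Smad4 peaks overlapped, with summits 13 bases apart and scores of 3.85 and 3.15. Col27a1 had 10 molar and 4 limb pSmad1/5 peaks, and 13 molar and 16 limb Smad4 peaks. Its 43 peaks over the 4 lists were the highest number of any member.

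The cartilage set of 8 genes (Col2a1, Col9a1, Col9a2, Col9a3, Col10a1, Col11a1, Col11a2 and Col27a1) had 28 molar and 20 limb pSmad1/5 peaks, and 26 molar and 41 limb Smad4 peaks. The limb Smad4 number was 1.85 times that at chromosome density (1.33 to 2.51), and the intervals of the other 3 lists included 1. Col2a1, the main collagen of cartilage, had 5 molar and 6 limb pSmad1/5 peaks, and 3 molar and 12 limb Smad4 peaks. All 3 molar Smad4 summits lay outside the gene, against 6 of 12 in limb, with the highest limb score of 4.73 at summit 97980745 on chromosome 15 inside the gene and another summit 17 bases from one end. Inside Col2a1 a molar and a limb pSmad1/5 summit lay 204 bases apart.

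Col11a2, a minor fibril chain of cartilage, had 5 molar and 4 limb pSmad1/5 peaks, and 2 molar and 5 limb Smad4 peaks. The highest score inside a collagen gene in any list, 6.56, was that of a molar Smad4 peak at chr17:34055754-34055803 in Col11a2. The strongest limb Smad4 peak of any collagen window, with a score of 6.33, also lay in the Col11a2 window but inside the gene H2-Ke6, 11215 bases from Col11a2. Its partner chain Col11a1 had 1 molar and 0 limb pSmad1/5 peaks, and 1 molar and 1 limb Smad4 peaks, the lowest density of the members with a peak, at 10.3 peaks per Mb of window over the 4 lists.

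The type IX collagens sit on the surface of cartilage fibrils. Col9a1 had 3 molar and 1 limb pSmad1/5 peaks, and 3 molar and 1 limb Smad4 peaks. Col9a2 had 1 molar and 0 limb pSmad1/5 peaks, and 3 molar and 2 limb Smad4 peaks. Col9a3 had 3 molar and 3 limb pSmad1/5 peaks, and 0 molar and 4 limb Smad4 peaks. Around one end of Col9a3 lay 4 summits, with molar pSmad1/5 2143 bases inside it (score 3.02), limb pSmad1/5 336 and 963 bases outside and limb Smad4 1831 bases inside (score 5.02). Col10a1, made by hypertrophic chondrocytes, had 0 molar and 2 limb pSmad1/5 peaks, and 1 molar and 0 limb Smad4 peaks. One limb pSmad1/5 peak was inside Col10a1, where the gene Nt5dc1 overlaps it.

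**Figure D3:**
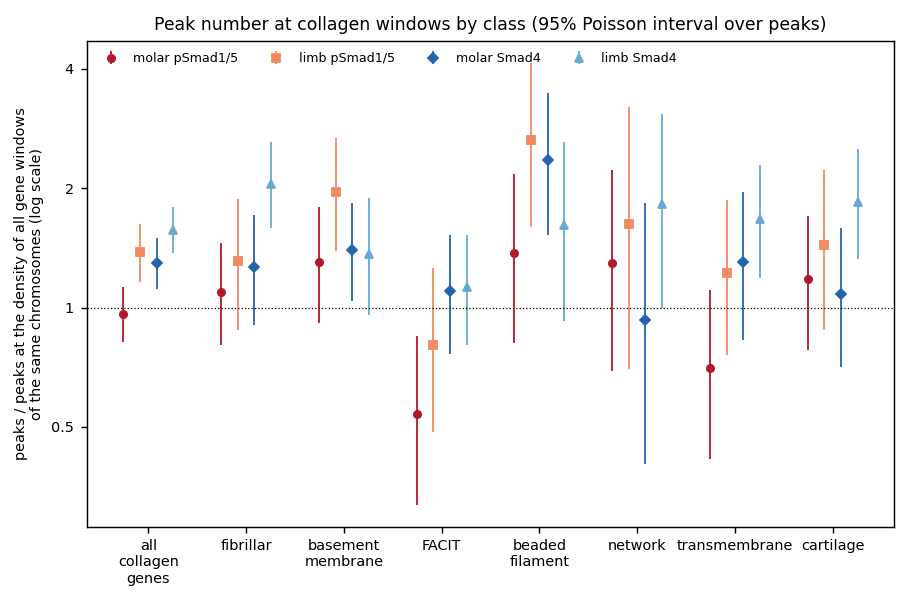
Ratio of the number of peaks in the windows of each collagen class to the number at chromosome density, for molar pSmad1/5, limb pSmad1/5, molar Smad4 and limb Smad4 (bars are exact Poisson 95% intervals over peaks, 1 library per list, log axis; the class of Col26a1 and Col28a1 is not drawn). The limb Smad4 interval of the fibrillar class runs from 1.59 to 2.61 and the molar pSmad1/5 interval of the FACIT class from 0.319 to 0.850.

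The basement membrane collagens were the class in which every member had peaks in every list, against 44.4% of all genes. That share was not weighted by length. Apart from Col7a1 (31.3 kb), the members ran from 105.5 kb (Col15a1) to 308.7 kb (Col4a6), against a median of 17.2 kb for all genes. Neighbouring type IV genes also have overlapping windows. The 9 genes, Col4a1 to Col4a6, Col7a1, Col15a1 and Col18a1, had 37 molar and 39 limb pSmad1/5 peaks, and 51 molar and 36 limb Smad4 peaks. Relative to chromosome density this was 1.30 in molar pSmad1/5 (0.916 to 1.79), 1.96 in limb pSmad1/5 (1.39 to 2.68), 1.40 in molar Smad4 (1.04 to 1.83) and 1.36 in limb Smad4 (0.956 to 1.89). Whether classes differ was not tested.

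The 6 type IV genes lie in 3 neighbouring pairs, so their peaks were also counted once per pair. Col4a1 had 2 molar and 5 limb pSmad1/5 peaks, and 3 molar and 1 limb Smad4 peaks, and Col4a2 had 3 molar and 13 limb pSmad1/5 peaks, and 7 molar and 7 limb Smad4 peaks. Together they had 4 molar and 13 limb pSmad1/5 peaks, and 7 molar and 7 limb Smad4 peaks. All 5 limb pSmad1/5 peaks of Col4a1 were also in the Col4a2 window. The highest score of the pair was 5.32, for a molar Smad4 peak at chr8:11445803-11445856 inside Col4a2.

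Col4a3 and Col4a4 make chains of the later, specialised basement membranes of kidney and other organs. Col4a3 had 5 molar and 1 limb pSmad1/5 peaks, and 3 molar and 1 limb Smad4 peaks, and Col4a4 had 3 molar and 1 limb pSmad1/5 peaks, and 4 molar and 1 limb Smad4 peaks. Counted once, the pair had 6 molar and 2 limb pSmad1/5 peaks, and 4 molar and 2 limb Smad4 peaks. The one limb pSmad1/5 peak inside Col4a4 had a score of 4.68, among the 5 highest of that list at collagen genes.

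Col4a5 and Col4a6 lie head to head on the X chromosome. Col4a5 had 5 molar and 3 limb pSmad1/5 peaks, and 6 molar and 1 limb Smad4 peaks. Col4a6 had 8 molar and 9 limb pSmad1/5 peaks, and 15 molar and 6 limb Smad4 peaks. The pair had 11 molar and 10 limb pSmad1/5 peaks, and 19 molar and 6 limb Smad4 peaks. The lowest score on the X chromosome was 2 in all 4 lists when rounded down, so the lists reach equally low there. In the Col4a6 window but inside the gene Atg4a, molar pSmad1/5, limb pSmad1/5 and limb Smad4 summits lay within 188 bases, and another limb pSmad1/5 peak there had the highest score of that list at collagen genes, 5.20.

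**Figure D4:**
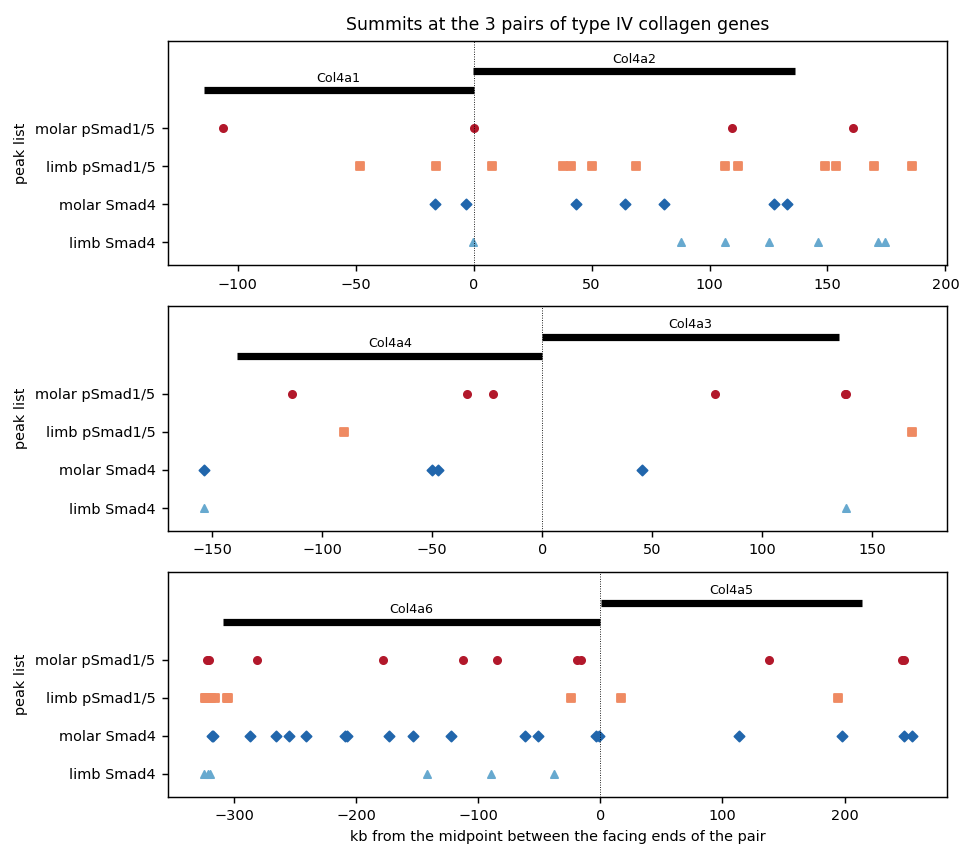
Summits at the 3 pairs of type IV collagen genes (x axis, kb from the midpoint between the facing ends of the pair; black bars are the genes) for molar pSmad1/5, limb pSmad1/5, molar Smad4 and limb Smad4 (rows, 1 library each). Along Col4a6 and Col4a5 there are 19 molar and 6 limb Smad4 summits, and along Col4a1 and Col4a2 4 molar and 13 limb pSmad1/5 summits.

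Col7a1, the anchoring fibril collagen under epithelium, had 4 molar and 2 limb pSmad1/5 peaks, and 1 molar and 4 limb Smad4 peaks. A molar pSmad1/5 and the molar Smad4 summit inside it lay 253 bases apart. Col15a1, of basement membranes next to connective tissue, had 4 molar and 3 limb pSmad1/5 peaks, and 10 molar and 3 limb Smad4 peaks. Molar and limb pSmad1/5 summits lay 178 bases apart at its start, with scores of 3.78 and 4.42. The Col15a1 window also reaches Tgfbr1, which codes for a TGF-beta receptor, and there a molar Smad4 peak had a score of 6.08 (9603 bases from Tgfbr1) and a limb pSmad1/5 peak one of 5.12 (281 bases from Tgfbr1). Col18a1, the source of endostatin, had 8 molar and 9 limb pSmad1/5 peaks, and 10 molar and 14 limb Smad4 peaks. Inside it a molar pSmad1/5 and a limb Smad4 peak overlapped, with summits 22 bases apart.

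The FACIT collagens, which coat fibrils, had 18 molar and 19 limb pSmad1/5 peaks, and 35 molar and 41 limb Smad4 peaks. The molar pSmad1/5 number was 0.538 times that at chromosome density (0.319 to 0.850), the one class and list in which the interval lay wholly below 1. Col16a1 was rich in limb Smad4 peaks, with 5 molar and 4 limb pSmad1/5 peaks, and 6 molar and 19 limb Smad4 peaks. Col14a1 had 2 molar and 1 limb pSmad1/5 peaks, and 9 molar and 2 limb Smad4 peaks, and its molar pSmad1/5 peak of score 4.76 lay 89 bases outside one end. Col20a1 had 1 molar and 8 limb pSmad1/5 peaks, and 0 molar and 8 limb Smad4 peaks. Col22a1 had 0 molar and 2 limb pSmad1/5 peaks, and 12 molar and 4 limb Smad4 peaks. Col19a1 had 5 molar and 1 limb pSmad1/5 peaks, and 4 molar and 1 limb Smad4 peaks. Within the class, Smad4 peaks were thus mostly limb peaks at Col16a1 and Col20a1 and mostly molar peaks at Col14a1 and Col22a1.

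The beaded filament collagens of type VI, which surround cells, had 18 molar and 19 limb pSmad1/5 peaks, and 25 molar and 16 limb Smad4 peaks. The ratios to chromosome density were highest in this class for limb pSmad1/5 (2.65, 1.60 to 4.14) and molar Smad4 (2.35, 1.52 to 3.47). Col6a3 had 8 molar and 2 limb pSmad1/5 peaks, and 13 molar and 3 limb Smad4 peaks. Col6a1 had 2 molar and 1 limb pSmad1/5 peaks, and 8 molar and 3 limb Smad4 peaks, and Col6a2 beside it had 3 molar and 8 limb pSmad1/5 peaks, and 4 molar and 9 limb Smad4 peaks. Col6a6, Col6a5 and Col6a4 follow each other on chromosome 9. Col6a6 had 3 molar and 7 limb pSmad1/5 peaks, and 1 molar and 0 limb Smad4 peaks. Col6a5 had 2 molar and 6 limb pSmad1/5 peaks, and 2 molar and 0 limb Smad4 peaks, of which one molar Smad4 peak inside the gene had a score of 5.38. Col6a4 had 2 molar and 0 limb pSmad1/5 peaks, and 1 molar and 1 limb Smad4 peaks.

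Of the remaining types, the network collagens Col8a1 and Col8a2 differed in where they had peaks. Col8a1 had 7 molar and 0 limb pSmad1/5 peaks, and 3 molar and 1 limb Smad4 peaks, and Col8a2 had 6 molar and 6 limb pSmad1/5 peaks, and 4 molar and 13 limb Smad4 peaks. Inside Col8a2 a limb pSmad1/5 peak (score 4.38) and a limb Smad4 peak (score 5.28) overlapped. Col8a2 had the densest window, with 227 peaks per Mb over the 4 lists. Among the transmembrane collagens, Col17a1 of hemidesmosomes, which fasten epithelium to its basement membrane, had 0 molar and 7 limb pSmad1/5 peaks, and 0 molar and 6 limb Smad4 peaks. Col13a1 had 3 molar and 4 limb pSmad1/5 peaks, and 9 molar and 15 limb Smad4 peaks. Col23a1 had 5 molar and 7 limb pSmad1/5 peaks, and 4 molar and 15 limb Smad4 peaks, and Col25a1 had 10 molar and 3 limb pSmad1/5 peaks, and 10 molar and 3 limb Smad4 peaks. As a class they had 18 molar and 21 limb pSmad1/5 peaks, and 23 molar and 39 limb Smad4 peaks, the last at 1.67 times chromosome density (1.19 to 2.28). Col26a1 had 3 molar and 6 limb pSmad1/5 peaks, and 0 molar and 15 limb Smad4 peaks, and Col28a1 had 4 molar and 0 limb pSmad1/5 peaks, and 3 molar and 1 limb Smad4 peaks.

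Over all chromosomes, collagen genes had more molar than limb peaks for pSmad1/5 and fewer for Smad4. Each direction turned on the chromosomes where the lists of that antibody had the same lowest score, with ratio intervals that included 1. These chromosomes were not the same for both antibodies. On those matched for pSmad1/5, Smad4 still had fewer molar than limb peaks (130 and 211). For pSmad1/5 there were 159 molar and 141 limb peaks, a ratio of 1.13 (exact interval 0.893 to 1.42). For Smad4 there were 186 molar and 228 limb peaks, a ratio of 0.816 (0.669 to 0.994). In the windows of all protein-coding genes the ratios were 1.39 for pSmad1/5 and 0.976 for Smad4. With pSmad1/5, 8 members had peaks in molar and none in limb (Col3a1, Col5a2, Col6a4, Col8a1, Col9a2, Col11a1, Col24a1 and Col28a1), and 3 had them in limb and none in molar (Col10a1, Col17a1 and Col22a1). These were 18.2% and 6.82% of the members, against 14.8% and 7.92% of all protein-coding genes. With Smad4, 6 had peaks in molar and none in limb (Col1a2, Col3a1, Col5a2, Col6a5, Col6a6 and Col10a1), and 4 in limb and none in molar (Col9a3, Col17a1, Col20a1 and Col26a1), or 13.6% and 9.09%, against 12.0% and 15.2% of all genes. With both antibodies Col3a1 and Col5a2 had peaks in molar and none in limb, and Col17a1 the reverse.

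These tissue ratios moved with the chromosome. On chromosomes 1, 3, 6 and 16 the lowest pSmad1/5 score, rounded down, was 2 in molar and 3 in limb, and the 13 members there had 55 molar and 9 limb pSmad1/5 peaks. In the windows of all genes on these 4 chromosomes the numbers were 10771 molar and 3240 limb pSmad1/5 peaks, a ratio of 3.32. More molar than limb peaks were listed at all 13 members, against 81.0% of the genes there. The surplus of molar pSmad1/5 peaks was thus found over these chromosomes as a whole. The other 31 members, on chromosomes where both pSmad1/5 lists had the same lowest score, had 104 molar and 132 limb peaks, a ratio of 0.788 (0.603 to 1.03), against 0.822 for all gene windows of the same chromosomes. Smad4 had the same lowest score in both tissues on chromosomes 1, 3, 6 and 16, and there the 13 members had 56 molar and 17 limb Smad4 peaks, a ratio of 3.29 (1.89 to 6.05), against 1.41 for all gene windows. More molar than limb Smad4 peaks were listed at 12 of the 13, against 46.9% of the genes there. Relative to chromosome density, the 13 members were at 0.907 (0.685 to 1.18) in molar Smad4 and 0.424 (0.247 to 0.679) in limb Smad4. The ratio of 3.29 thus went with few limb peaks rather than many molar peaks. The shares of genes were not matched for length, and neighbours with shared windows, such as Col3a1 and Col5a2, counted as separate members. Of the single-tissue genes of molar named above, Col1a2, Col3a1, Col5a2, Col8a1, Col11a1, Col24a1 and Col28a1 are among these 13.

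On chromosomes 2, 5, 8, 9, 11 and 19 the lowest Smad4 score was 4 in molar and 3 in limb. The 15 members there had 19 molar and 88 limb Smad4 peaks, a ratio of 0.216 (0.124 to 0.357), against 0.234 for all gene windows there. The other 29 members had 167 molar and 140 limb Smad4 peaks, a ratio of 1.19 with an interval that included 1, against 1.30 for all gene windows of those chromosomes. Col9a3, Col17a1, Col20a1 and Col26a1, the 4 members with Smad4 peaks in limb and none in molar, are all among the 15, as are Col1a1, Col5a1 and Col23a1. Tissue and lowest listed score cannot be told apart on these chromosomes. With only peaks of score 4 or higher, collagen genes had 14 molar and 26 limb pSmad1/5 peaks, and 55 molar and 67 limb Smad4 peaks. The whole lists had 3533 molar and 4771 limb pSmad1/5 peaks of that score, and 7206 molar and 7625 limb Smad4 peaks.

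**Figure D5:**
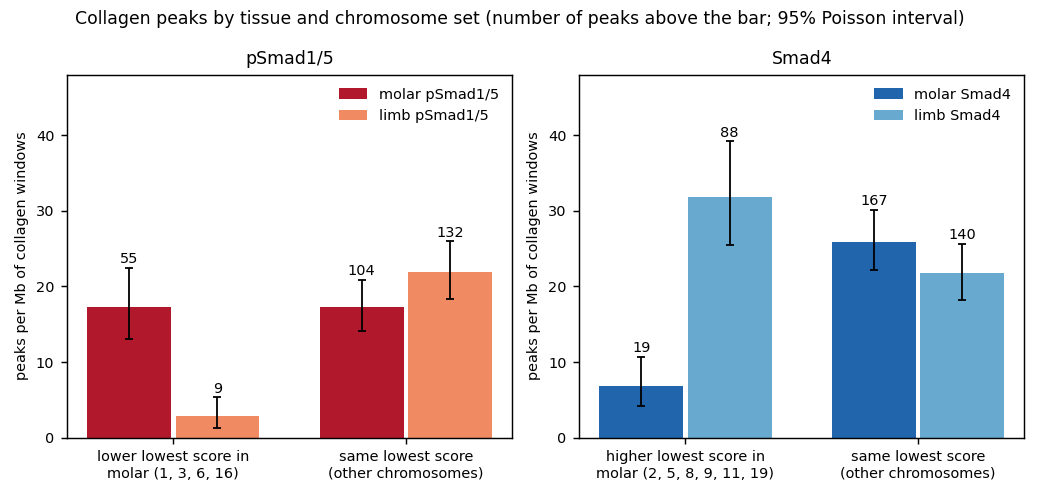
Peaks per Mb of collagen window in molar and limb, for pSmad1/5 and for Smad4, split by whether the lowest score of the antibody's lists differs between the tissues on the chromosome (error bars are exact Poisson 95% intervals over peaks, numbers above bars are peaks, 1 library per bar). On chromosomes 1, 3, 6 and 16 there are 55 molar and 9 limb pSmad1/5 peaks, and on chromosomes 2, 5, 8, 9, 11 and 19 there are 19 molar and 88 limb Smad4 peaks.

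Few collagen peaks were shared between lists. A peak overlapping by at least 1 bp was found for 1 of 159 molar pSmad1/5 peaks in limb pSmad1/5 (0.629%, against 1.11% of the whole list) and for 1 of 186 molar Smad4 peaks in limb Smad4 (0.538%, against 0.443%). Between antibodies, 2 of 159 molar pSmad1/5 peaks overlapped a molar Smad4 peak (1.26%, exact interval 0.153 to 4.47%, against 0.589%), and 3 of 141 limb pSmad1/5 peaks overlapped a limb Smad4 peak (2.13%, 0.441 to 6.09%, against 4.85%). Across both tissue and antibody, 2 of 159 molar pSmad1/5 peaks overlapped a limb Smad4 peak (1.26%, against 1.92%) and 1 of 141 limb pSmad1/5 peaks overlapped a molar Smad4 peak (0.709%, against 0.415%). Of these 10 overlaps, 3 lay inside a collagen gene, namely Col8a2, Col18a1 and Col24a1. Another, of limb pSmad1/5 with limb Smad4, lay 7058 bases from Col1a1, with Col1a1 nearest.

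The other 6 lay in neighbouring genes. They were at Rxrb in the Col11a2 window (molar with limb pSmad1/5), Ppp1r9b in the Col1a1 window and Irs4 in the Col4a5 window (molar pSmad1/5 with molar Smad4), Mff in the Col4a3 window (molar pSmad1/5 with limb Smad4), Slc19a1 in the Col18a1 window (limb pSmad1/5 with molar Smad4) and Atg4a in the Col4a6 window (limb pSmad1/5 with limb Smad4). The Ppp1r9b site, 38744 bases from Col1a1, had a molar pSmad1/5 summit (score 5.13), a molar Smad4 summit (4.68) and a limb Smad4 summit (5.65) within 337 bases. Peaks were narrow, so summits within 500 bp were also counted. They were found for 8 molar pSmad1/5 peaks in limb pSmad1/5 (5.03%, against 4.82%), 7 molar Smad4 peaks in limb Smad4 (3.76%, against 2.56%), 9 molar pSmad1/5 peaks in molar Smad4 (5.66%, against 3.01%) and 16 limb pSmad1/5 peaks in limb Smad4 (11.3%, against 13.1%).

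Median scores of collagen peaks were above those of their lists in molar pSmad1/5, molar Smad4 and limb Smad4, and below in limb pSmad1/5. The median was 3.22 at collagen genes and 2.9995 over all peaks in molar pSmad1/5, 3.39 and 3.44 in limb pSmad1/5, 3.46 and 3.38 in molar Smad4, and 3.62 and 3.53 in limb Smad4. A score of at least 4 was given to 29.6% of the molar Smad4 peaks at collagen genes, against 20.9% of the list. A molar Smad4 peak of that score was listed for 29 members, or 65.9%, against 38.9% of all genes. In the other lists the members numbered 14 in molar pSmad1/5 (31.8%, against 27.8%), 16 in limb pSmad1/5 (36.4%, against 34.3%) and 22 in limb Smad4 (against 43.4%). These shares of all genes were not weighted by length, and collagen genes are long. On chromosomes 2, 5, 8, 9, 11 and 19 the lowest molar Smad4 score was already 4, so the filter removed no molar Smad4 peak there.

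Several of the highest-scoring peaks belonged to a window but not to the collagen gene. In molar Smad4 the highest score, 6.85, lay inside Sgca, 13306 bases from Col1a1. In molar pSmad1/5 the highest, 5.34, lay 1730 bases from Myl10 in the Col26a1 window. It was followed by Ppp1r9b, and then by the starts of Col25a1 (4.95) and Col6a1 (4.92). Next came a peak at one end of Col14a1 (4.76), which cannot be called its start or its end without the strand. In limb pSmad1/5, peaks inside Col20a1 (4.67) and inside Akna in the Col27a1 window (4.61) followed those at Atg4a, Tgfbr1 and Col4a4. In limb Smad4 the Col26a1 peak 555 bases from one of its ends scored 5.67, and one inside Mios in the Col28a1 window 5.63. A collagen gene was the nearest protein-coding gene for 72.3% of the molar pSmad1/5 peaks of the windows, 61.0% in limb pSmad1/5, 78.5% in molar Smad4 and 67.1% in limb Smad4.

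The genes that make, fold, cut, cross-link and bind collagen were set beside the collagen genes, as a list of 40. A peak within 50 kb was listed for 35 of them in molar pSmad1/5, 34 in limb pSmad1/5, 29 in molar Smad4 and 34 in limb Smad4, against the shares of 74.9, 68.0, 68.0 and 71.2% of all genes given above. A summit within 1 kb of an end was found at 13 of these genes in molar pSmad1/5, 11 in limb pSmad1/5, 3 in molar Smad4 and 10 in limb Smad4. The collagen genes had 9, 6, 6 and 12 of 44 by the same rule, against 20.7, 15.5, 7.76 and 21.8% of all genes. P3h1, a prolyl hydroxylase, had summits 170 bases from an end in molar pSmad1/5, 246 in limb pSmad1/5 and 231 in limb Smad4. Its relative P3h2 had them 383 bases from an end in molar pSmad1/5 and 74 in limb pSmad1/5.

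Fn1, which codes for fibronectin, had summits 427 bases from an end in molar pSmad1/5 and 126 in limb Smad4. In limb, with pSmad1/5 and Smad4 alike, summits lay near an end of Adamts2 (6 and 677 bases), a proteinase that trims fibrillar procollagens, and Adamts3 (337 and 855 bases), its relative. The same held for Colgalt2 (291 and 227 bases), a collagen galactosyltransferase, Mrc2 (609 and 333 bases), a collagen uptake receptor, and Sparc (68 and 954 bases), a collagen-binding matrix protein. Relative to chromosome density, the windows of the 40 genes had 1.46 times as many peaks in molar pSmad1/5 (1.24 to 1.70), 1.77 in limb pSmad1/5 (1.49 to 2.10), 1.30 in molar Smad4 (1.06 to 1.58) and 1.80 in limb Smad4 (1.55 to 2.07), beside the 0.965, 1.38, 1.29 and 1.57 of the collagen genes.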

How the data were processed

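The authors' deposited lists, 1 for each ChIP library, are output of BCP_TF (the BCP peak caller for transcription factors), per the labels, with position, summit, an enrichment score and a p-value for each peak. The deposited score is the authors' value and was used only to describe, rank or filter peaks, and the deposited p-value entered no test. Other deposited columns hold coordinates and lengths. The build is mm10 per the submitters' processing notes, which also name Bowtie2, SAMtools, bedtools, deepTools and bcl2fastq, with no version or role given. Use of the inputs, duplicate removal and depth are not given in the sources used here.

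Gene positions, promoters and starts were those of RefSeq on GRCm38.p6, which has the primary coordinates of mm10. The promoter table matched 35 of 44 collagen genes, and no distinction was made between exons, introns and UTRs. A peak was assigned by its summit, to every gene within 50 kb. Expected numbers came from the peaks per Mb in all protein-coding gene windows of each chromosome. Intervals are exact binomial (Clopper-Pearson) or Poisson, at 95%, and cover counting error over peaks only. Genes were counted near an end or start within 1 kb. Named were all fibrillar, basement membrane and cartilage members, those with no peak, with peaks of an antibody in 1 tissue, near an end or at a shared site, the 5 highest-scoring peaks and the 5 genes with the most peaks per list, and collagen-making genes near an end in at least 2 lists. Members and lists were chosen with earlier results of these data known. Counting was tested on simulated data, in which 20 of 20 planted molar pSmad1/5 peaks were found. Alternatives are in the closing section. Scripts ran under Python 3.11.15 with matplotlib 3.10.9, scipy 1.17.1, pandas 2.3.3 and numpy 2.4.6.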

Additional observations from a re-analysis of the deposited data

Results flagged for a closer look

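In 8 sets the molar minus limb difference in peaks had opposite signs for pSmad1/5 and Smad4. No difference was tested, as each list is 1 library. For all collagen genes the difference was 18 for pSmad1/5 and -42 for Smad4, which are 60 peaks apart. Both signs turned on chromosomes with the same lowest score in both tissues, with 104 molar and 132 limb pSmad1/5 peaks (ratio 0.788), and 167 molar and 140 limb Smad4 peaks (ratio 1.19). The fibrillar class had 19 for pSmad1/5 and -25 for Smad4 (44 apart), the cartilage set 8 and -15 (23 apart), the network class 5 and -6 (11 apart), and Col26a1 with Col28a1 1 and -13 (14 apart). Col27a1 alone had 6 for pSmad1/5 and -3 for Smad4, 9 apart. In basement membrane collagens the signs were the other way, -2 for pSmad1/5 and 15 for Smad4 (-17 apart), as in the beaded filament class with -1 and 9 (-10 apart). The molar over limb ratios of these classes had intervals that included 1. They were 0.588 to 1.53 and 0.907 to 2.23 for basement membrane, and 0.469 to 1.91 and 0.802 to 3.13 for beaded filament. Among the classes, only the fibrillar intervals excluded 1 for both antibodies (1.02 to 2.72 and 0.410 to 0.931). The ratio of all gene windows lay within the first of these (1.39 for pSmad1/5) and above the second (0.976 for Smad4). The lowest pSmad1/5 score differed between tissues at Col1a2, Col3a1, Col5a2, Col11a1 and Col24a1. The lowest Smad4 score differed at Col1a1, Col5a1 and Col5a3. Tissue and lowest score cannot be told apart at these fibrillar members. The windows of all protein-coding genes also had opposite signs, with 28092 molar and 20184 limb pSmad1/5 peaks, and 25705 molar and 26343 limb Smad4 peaks.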

How the results depend on the processing

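Of 126 counts and medians under another setting, 67 stayed close to the reported value and 59 moved. Each is a value of 1 list and has no sign, but the tissue direction of the collagen peaks did turn. For pSmad1/5 it turned with equal numbers of top peaks per chromosome (84 molar, 89 limb), the same lowest score in both tissues (104 molar, 132 limb) and a score of at least 4 (14 molar, 26 limb). For Smad4 it turned with the same lowest score (167 molar, 140 limb). The whole pSmad1/5 lists turned as well. They had 14121 molar and 16772 limb peaks on chromosomes with the same lowest score, and 3533 and 4771 at a score of at least 4. The whole Smad4 lists had 31752 molar and 18834 limb peaks on chromosomes with the same lowest score. Values are given in the order molar pSmad1/5, limb pSmad1/5, molar Smad4 and limb Smad4. At a score of at least 4, collagen peaks numbered 14, 26, 55 and 67, genes near an end 5, 3, 2 and 2, collagen-making genes with a peak 15, 19, 18 and 20, and median scores were 4.35, 4.31, 4.28 and 4.48. At that score collagen genes with a peak numbered 14 in molar pSmad1/5, 16 in limb pSmad1/5 and 22 in limb Smad4. With equal numbers of top peaks per chromosome, collagen peaks numbered 84, 89, 94 and 106. Counted inside the gene they numbered 94, 71, 112 and 128, and limb pSmad1/5 had 91 within 10 kb and 86 with a collagen gene nearest. On chromosomes with the same lowest score in both tissues there were 104 molar pSmad1/5 peaks, with a median score of 3.39, and 140 limb Smad4 peaks. Chosen after seeing the data, chromosomes with a lowest molar Smad4 score of 4 had 39, 68, 19 and 88 peaks, and the others 73 in limb pSmad1/5 and 140 in limb Smad4. Within 500 bp of an end there was 1 gene in limb pSmad1/5 and 7 in limb Smad4, and within 2 kb 10 in molar Smad4.

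Shared collagen peaks at a score of at least 4 numbered 1 for molar pSmad1/5 with molar Smad4 and 1 for limb pSmad1/5 with limb Smad4, and 0 for the other 4 pairs. With equal numbers of top peaks, molar pSmad1/5 shared 1 with molar Smad4 and 0 with limb Smad4, and on chromosomes with the same lowest score 1 with each. Summits within 500 bp numbered 8 for molar with limb pSmad1/5, 9 for molar pSmad1/5 with molar Smad4, 18 for molar pSmad1/5 with limb Smad4, 3 for limb pSmad1/5 with molar Smad4, 16 for limb pSmad1/5 with limb Smad4 and 7 for molar with limb Smad4. Within 100 bp the last pairs had 5 and 2. By construction, stricter score, chromosome and distance settings leave fewer peaks and wider distances admit more, and other causes were not tested. No paired analysis was possible because each group is 1 library and the labels carry no replicate numbers. Depth is unknown, so a gene without a listed peak is not shown to lack binding.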
